A study of Mus musculus with 30 samples.

Results

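Chromatin modifiers and remodellers are the enzymes that write, erase and copy chemical marks on histones and DNA, and the ATP-driven machines that move nucleosomes. Their transcripts were followed in mouse satellite cells, the resident muscle stem cells, from uninjured muscle through injury and repair. Members were chosen by gene symbol, with no measured value in the rule: the Kdm histone demethylases, the Kmt2 and Kmt5 groups with the Setd, Ezh1 and Ezh2 histone methyltransferases, the Hdac deacetylases, the Sirt sirtuins, the Dnmt and Tet enzymes of DNA methylation, the Chd and Smarc remodellers, and Srcap with Ep400. Of 55450 genes in the tables of the time course and of regeneration, 87 were members. They comprised 19 demethylases, 18 methyltransferases, 13 Smarc genes, 11 deacetylases, 9 Chd genes, 8 genes of DNA methylation, 7 sirtuins and 2 remodellers of the SRCAP and EP400 kind.

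As background, the Kmt2 enzymes methylate histone H3 at a lysine associated with active promoters and enhancers. Ezh1 and Ezh2 are alternative catalytic subunits of Polycomb repressive complex 2, which places a repressive methyl mark that Kdm6a and Kdm6b remove. Dnmt1 copies DNA methylation onto newly replicated DNA, Dnmt3a and Dnmt3b lay it down on unmethylated sites, and the Tet enzymes oxidise it. Srcap and Ep400 are the ATPases of complexes that exchange histone variants, and Smarca2 and Smarca4 are the alternative ATPases of SWI/SNF. After injury satellite cells leave quiescence, express the myogenic factor Myod1 and divide as myoblasts; Ezh2 is known for its presence in dividing myoblasts and Ezh1 for its presence in resting and differentiated muscle cells.

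The series held 30 RNA-seq libraries of C57BL/6 hind limb satellite cells in 15 groups of 2. Injured groups were taken 0.5, 1, 2, 4, 8, 16, 32 and 60 h and 7, 14 and 28 days after injection of barium chloride, a salt that kills muscle fibres, and were set against uninjured cells. Of 3 groups labelled old, oASC were cells 2.5 days after injury and oFISC were freshly isolated cells, set against oQSC, cells fixed in place and not treated; the labels give no ages, and the oFISC label carries the injury treatment with no time after it. The protocol given with every library has mice perfused with paraformaldehyde before cells were isolated, while the source labels of oFISC and oASC do not call the cells fixed, so whether these 2 groups differ from the rest in fixation cannot be told. The labels do not say that the 2 libraries of a group came from separate animals, so p-values measure the spread between these samples, which may be technical.

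Library totals ran from 9182407 to 57441790 counts. The satellite cell marker Pax7 was at 1746 and 1555 CPM (counts set to the same library total) in uninjured cells, and every library had counts of Pax7, Myf5 and Myod1. The oQSC libraries had Myod1 at 1070 and 1536 CPM and Pax7 at 84.5 and 72.7 CPM, against Myod1 at 41.4 and 50.8 CPM in uninjured cells. Ribosomal RNA gene models took 45.6% and 34.1% of counts in uninjured cells, 26.5% and 29.1% at 60 h, 1.19% and 15.6% at 14 days, 13.8% and 13.2% in oASC and 0.319% to 9.53% in all other libraries. Satellite repeat models took 61.2% and 26.6% of counts in oFISC, 21.0% and 18.8% in oQSC and 15% in 1 library at 28 days. The parts that transcript length and other cells play in the member values below were not tested; each count of calls was repeated without the ribosomal and satellite models.

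Promoter sequence is shown for Dnmt1, Ezh2 and Ezh1. These genes were picked because at 60 h Dnmt1, Ezh2 and the cell cycle genes stood above uninjured cells, while Ezh1 stood below. Each run covers 250 bases before to 50 after the annotated start on the minus strand, from RefSeq on GRCm38.p6, at chr9:20952574-20952873 for Dnmt1 (1 of 3 annotated starts), chr6:47594981-47595280 for Ezh2 and chr11:101226414-101226713 for Ezh1. Capitals mark the strings TTTGGCGC, TTTCGCGC, TTTCCCGC or TTTGCCGC, or their reverse complements, which resemble the site of the cell cycle factor E2F.
Dnmt1: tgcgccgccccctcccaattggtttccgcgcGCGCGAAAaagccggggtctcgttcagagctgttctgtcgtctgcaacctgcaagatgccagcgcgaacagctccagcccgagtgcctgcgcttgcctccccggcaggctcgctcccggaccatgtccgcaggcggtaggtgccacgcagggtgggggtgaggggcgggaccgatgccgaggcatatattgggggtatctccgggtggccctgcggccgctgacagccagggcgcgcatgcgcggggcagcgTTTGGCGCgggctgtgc
Ezh2: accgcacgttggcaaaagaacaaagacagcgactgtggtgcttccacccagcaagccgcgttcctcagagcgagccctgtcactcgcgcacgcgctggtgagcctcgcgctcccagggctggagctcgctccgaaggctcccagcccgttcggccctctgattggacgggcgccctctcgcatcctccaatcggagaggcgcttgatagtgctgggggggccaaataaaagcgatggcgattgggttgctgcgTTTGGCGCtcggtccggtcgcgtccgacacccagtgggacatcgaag
Ezh1: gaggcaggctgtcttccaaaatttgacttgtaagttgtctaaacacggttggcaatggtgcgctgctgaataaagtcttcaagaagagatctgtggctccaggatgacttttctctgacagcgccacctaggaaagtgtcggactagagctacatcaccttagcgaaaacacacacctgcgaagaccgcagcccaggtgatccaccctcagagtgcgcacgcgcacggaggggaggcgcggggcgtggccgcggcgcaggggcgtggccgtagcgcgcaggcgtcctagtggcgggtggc
Dnmt1 held 2 matches, Ezh2 held 1 and Ezh1 held 0. Since the genes shown were picked by their direction, these counts cannot show whether matches go with it. The Dnmt1 start shown was taken for having the most matches, and its other annotated starts held 0. Among the 69 members with a promoter in the table, 5 held a match (7.25%: Dnmt1, Ezh2, Kmt5c, Sirt4 and Smarcd1), against 2.60% of 27025 genes. Without ribosomal and satellite models, the log2 folds of Kmt5c, Sirt4 and Smarcd1 at 60 h against uninjured cells were -0.72, -0.81 and -1.29. The promoters of Hdac2, Hdac6, Setd6, Smarcb1 and Smarcc1, members called higher at 60 h, held 0 matches. Members' promoters had a median GC content of 62.7% and 23 CpG dinucleotides, against 52.7% and 7 over all genes, and a GC-rich string is met more often in GC-rich sequence. For comparison, CCAAT was in 40.6% of members and 41.1% of genes, the AP-1 strings TGACTCA or TGAGTCA in 8.70% and 5.95%, TTTGAA in 14.5% and 20.2%, and TGACGTCA in 0 of 69 members and 2.03% of genes. A match is a description of these letters, not of binding.

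Nearly all members were measured. In the time course 84 of 87 passed the filter on low counts; Dnmt3c, Dnmt3l and Kdm4dl, each at most 1.22 CPM in any library, did not. Regeneration had 82 testable members and the old cells all 87. Per kilobase of transcript, the highest median levels over the 30 libraries belonged to Kdm6b at 35.1 CPM per kb, Sirt2 at 22.1, the NuRD remodeller Chd4 at 19.8, Kmt2e at 18 and Hdac1 at 17.7. Members have long transcripts, with a median of 7608.5 bases among those tested in the time course, against 3109 over all tested genes. At 60 h the median log2 fold change of genes over 8 kb was -0.54 over all 2616 such genes and -1.34 over the 39 members of that length.

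**Figure D1:**
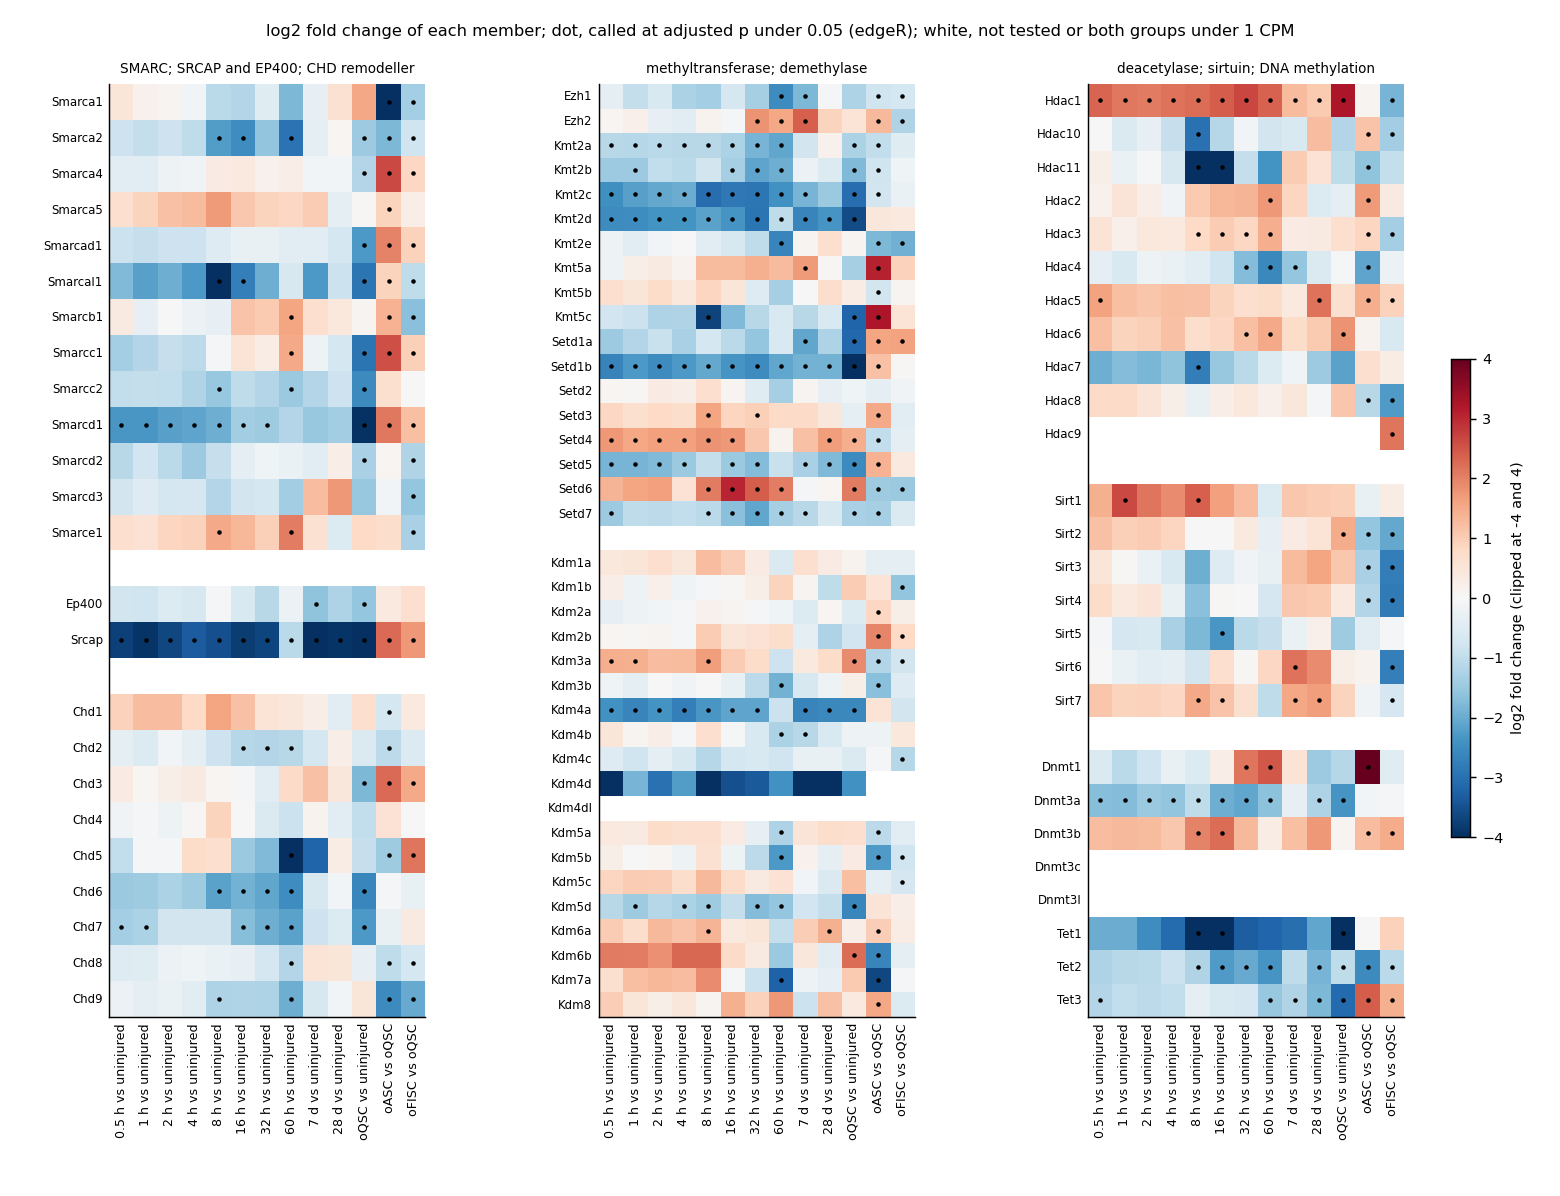
Log2 fold change (edgeR) of each member, by role, in 13 comparisons; red is higher and blue lower in the group named first, clipped at -4 and 4, a dot marks adjusted p under 0.05, and white marks pairs not tested or with both groups under 1 CPM. At 60 h 10 members carry a dot as higher and 27 as lower, and in oASC against oQSC 27 as higher and 29 as lower.

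In the first hours more members passed the test as lower than as higher. Against uninjured cells, 4 members rose and 12 fell at 0.5 h, 19.0% of the 84 tested, with 10.3% of all 22479 tested genes called either way (6.88% higher, 3.42% lower) by edgeR's quasi-likelihood test with Benjamini-Hochberg adjustment. At 1 h 4 rose and 12 fell (10.2% of all genes called, 6.57% higher and 3.64% lower). At 2 h 2 rose and 9 fell (9.31%, 6.32% higher and 2.99% lower), and at 4 h 2 rose and 10 fell (11.0%, 7.18% higher and 3.8% lower). With fold changes corrected for transcript length the splits were 4 higher and 5 lower at 2 h, and 4 and 6 at 4 h. The median log2 fold change at 0.5 h was -0.16 over members and 0.24 over all genes. These 4 comparisons share the 2 uninjured libraries, and without uninjured library 1 each of them called 3 members, Kmt2d, Setd1b and Srcap. Leaving out any one of the other libraries left 6 to 12 calls at 0.5 h, 5 to 8 at 1 h, 4 to 9 at 2 h and 4 to 11 at 4 h. Markers of some other cells were higher in the same comparisons. Of 10 endothelial markers 3, 7, 1 and 7 rose at 0.5, 1, 2 and 4 h, with sums of 87.6 to 281 CPM over these 8 libraries, against 37.3 and 73.8 CPM in the uninjured pair. Of 10 pericyte and smooth muscle markers 3, 4, 3 and 4 rose (902 to 1414 CPM, against 440 and 309 CPM), and of 9 fibro-adipogenic markers 3, 3, 2 and 4 (1259 to 2909 CPM, against 1347 and 1185 CPM). None of 9 macrophage markers was called at these times, with sums of 12.3 to 140 CPM, against 5.51 and 4.18 CPM in the uninjured pair. Neutrophil markers summed to 2.29 to 55.1 CPM over the same libraries, against 1.19 to 1.49 CPM, and lymphocyte markers to 3.16 to 10.4 CPM, against 2.11 to 3.07 CPM. Myofibre sums of 67.2 to 247 CPM, against 108 to 187 CPM, lay on both sides of the uninjured pair. So did Schwann sums of 16.4 to 53.1 CPM, against 25.3 to 26.2 CPM. The part of all these markers in the member values was not tested.

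Srcap had the largest fall among the called members at 0.5 h. It was at 50.2 and 61.7 CPM at 0.5 h, 63.0 and 83.8 at 4 h, 67.0 and 63.3 at 8 h, 36.3 and 80.1 at 32 h and 351 and 338 at 60 h, against 779 and 677 CPM in the uninjured pair. Both uninjured libraries stood above all 28 others, and the 60 h libraries were next. The log2 fold change was -3.74 ± 0.39 at 0.5 h (SE, adjusted p = 0.00111) and -1.09 ± 0.36 at 60 h (adjusted p = 0.0384), and 60 h was 2.42 ± 0.37 above 8 h (adjusted p = 0.00107). Without ribosomal and satellite models the fold at 0.5 h was -3.77. The call at 60 h was lost without any one of its 4 libraries (adjusted p = 0.0930 to 0.177). Of the 15783 exonic bases of Srcap, 61.7% also belong to the gene model Gm42715 on the same strand, so that reads can be counted for either gene. Summed over both, 0.5 h stood at 109 and 173 CPM and 60 h at 545 and 508 CPM, against 789 and 783 CPM in the uninjured pair, a smaller gap in the same order.

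The H3 lysine methyltransferases Kmt2d, Kmt2c, Kmt2a and Setd1b also fell. Kmt2d was at 262 and 234 CPM at 0.5 h, 171 and 194 at 32 h and 716 and 670 at 60 h, against 1383 and 1399 CPM in the uninjured pair. Uninjured and injured libraries did not overlap, and the log2 fold change was -2.53 ± 0.26 at 0.5 h (adjusted p = 0.00111), -2.15 ± 0.25 at 8 h (adjusted p = 0.000911) and -2.93 ± 0.26 at 32 h (adjusted p = 0.000189). Non-overlap was a condition for listing a largest fall, as Kmt2d was at 0.5 and 32 h. Setd1b, a catalytic subunit of another complex of the same mark, was at 17.9 and 23.1 CPM at 0.5 h, then 37.1 and 23.4 CPM at 60 h, against 108 and 145 CPM in the uninjured pair. Its fold changes were -2.66 ± 0.40 at 0.5 h (adjusted p = 0.00326) and -2.07 ± 0.39 at 60 h (adjusted p = 0.00244). Kmt2c, the close paralogue of Kmt2d, was at 51.2 and 38.1 CPM at 8 h, then 71.6 and 62.0 CPM at 60 h, against 319 and 399 CPM in the uninjured pair. It was called at each of the 8 times, but at none of them in every fit that left out 1 library. Under all 7 scalings and filters tried, Kmt2c was called at 0.5, 8, 16 and 32 h and not at 1, 2, 4 and 60 h. Kmt2a, the mixed-lineage leukaemia enzyme, fell by 2.08 on the log2 scale at 60 h (SE 0.31, adjusted p = 0.000593). At 14 days the libraries had Kmt2d at 156 and 671 CPM beside ribosomal shares of 1.19% and 15.6%, and in oASC Kmt2d was at 159 and 161 CPM beside shares of 13.8% and 13.2%. Without ribosomal and satellite models, a setting that changes only the scaling, the Kmt2d fold at 0.5 h was -2.57. The part of the ribosomal share in the Kmt2d levels was not tested. At 60 h the Kmt2d fold was -1.01 ± 0.25 (adjusted p = 0.00954) and 0.10 when fold changes were corrected for transcript length, and the call was lost without any one of its 4 libraries (adjusted p = 0.0542 to 0.0950).

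**Figure D2:**
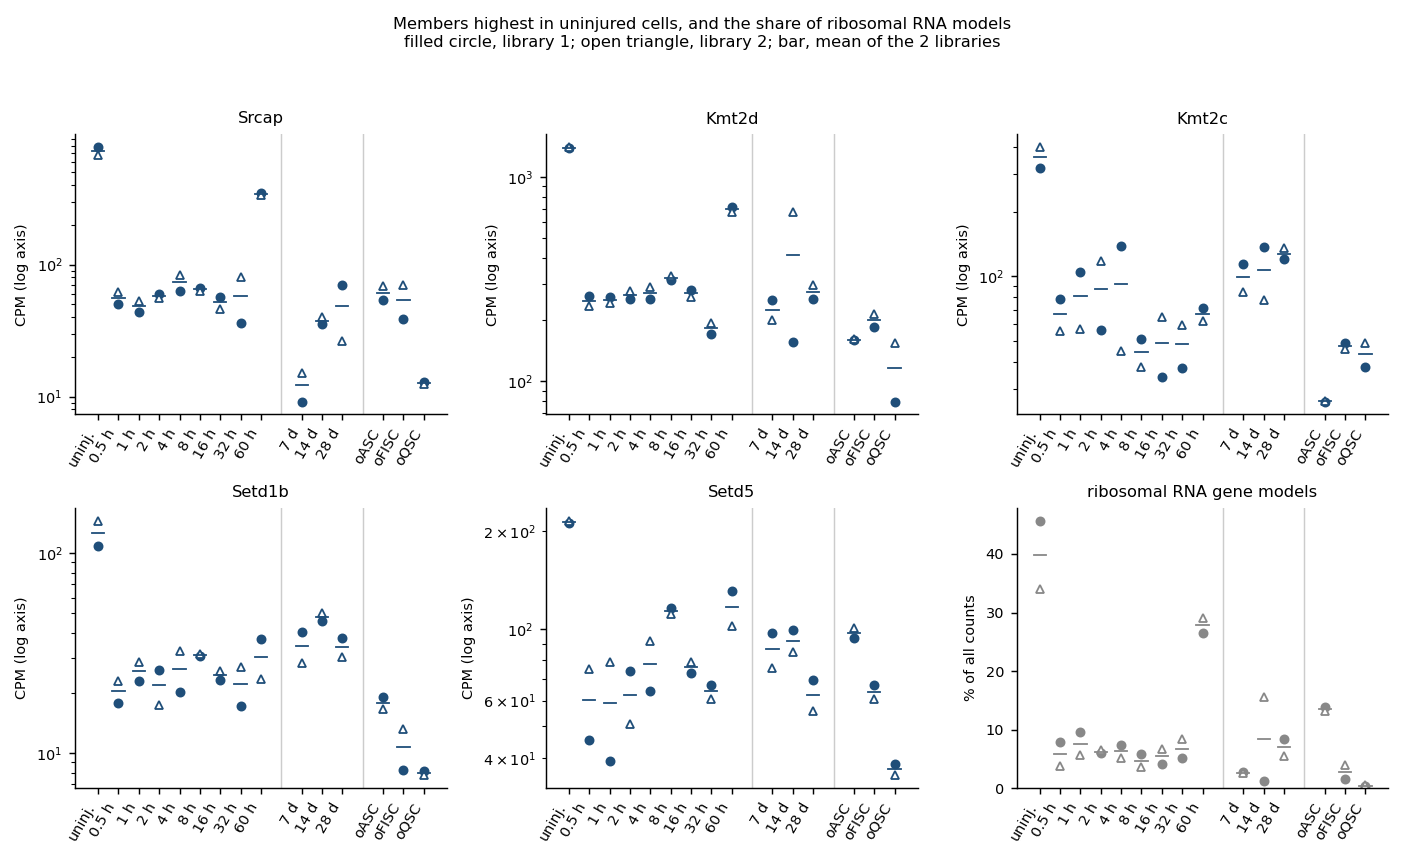
CPM (log axis) of Srcap, Kmt2d, Kmt2c, Setd1b and Setd5 in each library, and the percentage of counts in ribosomal RNA gene models (linear axis); circles and triangles are the 2 libraries of a group and bars their mean. Srcap stands at 779 and 677 CPM in uninjured cells and at 351 or less in the other groups, and the ribosomal share is 45.6% and 34.1% in uninjured cells.

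Hdac1, a deacetylase of the NuRD, SIN3 and CoREST complexes, moved the other way. It was at 62.6 and 77.8 CPM at 0.5 h, 70.5 and 61.4 at 8 h, 99.6 and 72.4 at 32 h and 63.5 and 76.4 at 60 h, against 12.8 and 14.5 CPM in the uninjured pair. No injured library to 60 h overlapped the uninjured ones, and the log2 fold change was 2.33 ± 0.37 at 0.5 h (adjusted p = 0.00417) and 2.66 ± 0.37 at 32 h (adjusted p = 0.00105). Non-overlap was a condition for listing a largest rise, as Hdac1 was at these times. Setd4 and Kdm3a, a demethylase of a repressive H3 mark, also rose at 0.5 h, by 1.72 ± 0.43 (adjusted p = 0.0255) and 1.44 ± 0.40 (adjusted p = 0.0382); Setd4 was at 10.6 and 13.3 CPM at 0.5 h, against 3.03 and 4.00 CPM in the uninjured pair. Both calls were lost in 3 of 4 fits that left out 1 library, all but that without 0.5 h library 1 (highest adjusted p = 0.176 for Setd4 and 0.209 for Kdm3a), and the Hdac1 call at 0.5 h was lost without uninjured library 1 (0.0520).

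Several members had 2 libraries far apart in the first hours and were not called. Kdm6b, the inducible demethylase of the Polycomb mark, was at 101 and 1400 CPM at 0.5 h, 506 and 945 at 1 h, 976 and 240 at 2 h and 636 and 1086 at 4 h, against 174 and 174 CPM in the uninjured pair. One library at 0.5 h lay below the uninjured level and the other well above it, and the fold change of 2.09 ± 0.93 had an adjusted p of 0.166. Kdm7a, a demethylase of repressive H3 marks, was at 21.9 and 116 CPM at 0.5 h, 31.6 and 165 at 1 h, 170 and 43.2 at 2 h and 41.7 and 166 at 4 h, against 44.1 and 42.2 CPM in the uninjured pair. Myod1 was high in the same libraries, at 119 and 1508 CPM at 0.5 h, 162 and 1790 at 1 h, 1882 and 82.7 at 2 h and 88.3 and 2165 at 4 h. Tet1 and the annealing helicase Smarcal1 were low where these were high: at 0.5 h Tet1 was at 30.4 and 4.09 CPM and Smarcal1 at 24.5 and 6.18 CPM, against 79.7 and 51.9 CPM and 57.1 and 43.4 CPM in uninjured cells. What sets these libraries apart was not tested, and the labels name no batch.

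The same spread was counted over all genes. Among those with a mean of at least 5 CPM, the 2 libraries differed by more than 2-fold for 31 of 79 members at 0.5 h (39.2%, against 45.8% of all genes), 26 of 78 at 1 h (33.3%, against 38.1%), 29 of 78 at 2 h (37.2%, against 43.9%) and 21 of 77 at 4 h (27.3%, against 40.3%). At 8 h this held for 1 of 69 members (1.45%, against 2.23% of all genes), at 60 h for 2 of 75 (2.67%, against 1.95%) and in uninjured cells for 2 of 76 (2.63%, against 6.01%).

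**Figure D3:**
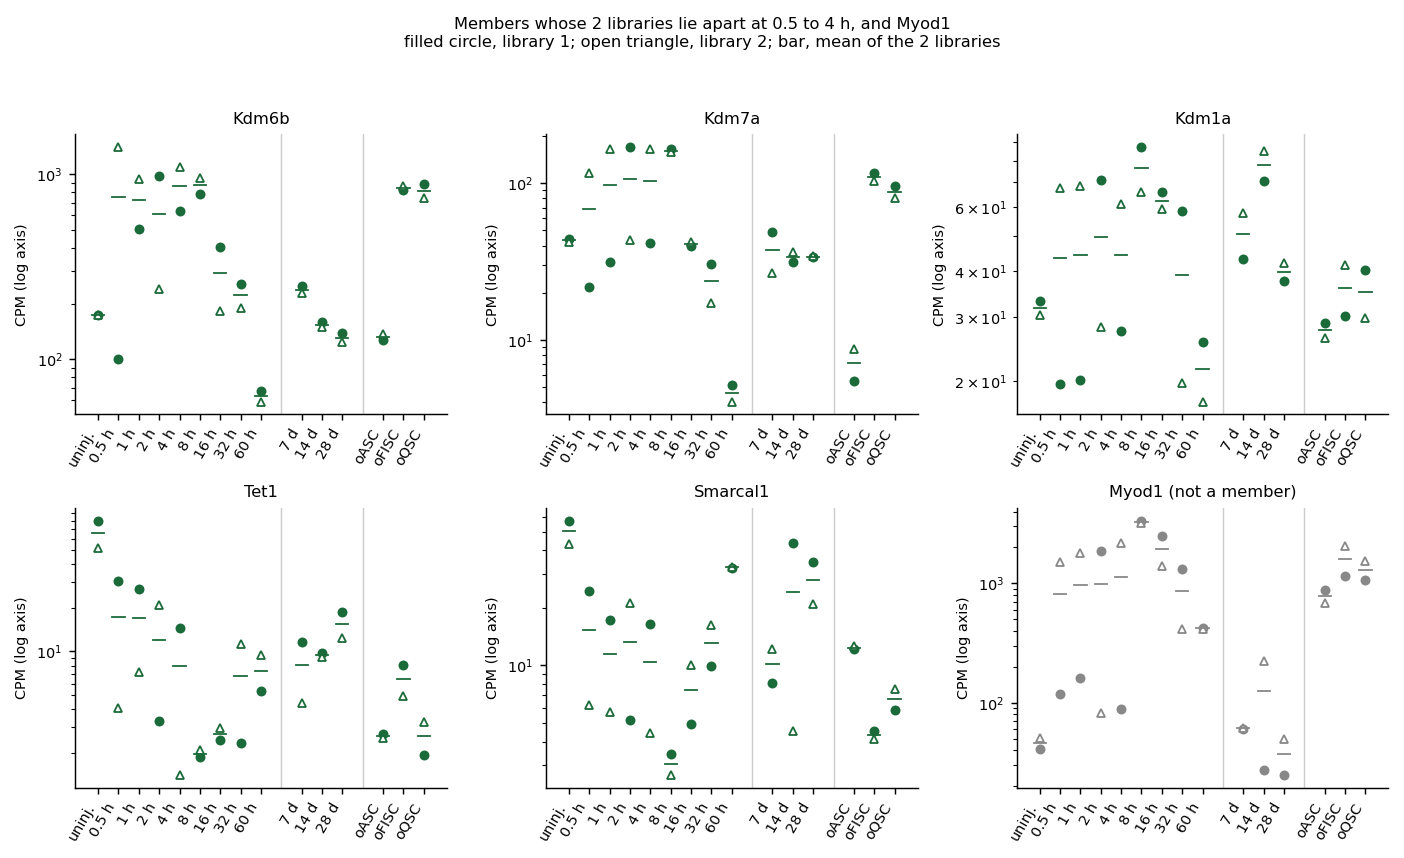
CPM (log axis) of Kdm6b, Kdm7a, Kdm1a, Tet1 and Smarcal1, and of Myod1, which is not a member, in each library; circles and triangles are the 2 libraries and bars their mean. At 0.5 h Kdm6b stands at 101 and 1400 CPM where Myod1 stands at 119 and 1508 CPM.

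At 8 h the libraries lay close together, and 11 members were higher and 21 lower, with 30.1% of all genes called (16.1% higher, 14.0% lower). With the length correction 12 were higher and 15 lower. Rising members were the deacetylases Hdac1 and Hdac3, the sirtuins Sirt1 and Sirt7, the demethylases Kdm3a and Kdm6a, the methyltransferases Setd3, Setd4 and Setd6, Dnmt3b and the SWI/SNF subunit Smarce1. Sirt1, an NAD-dependent deacetylase, was at 53.1 and 37.8 CPM at 8 h, against 9.19 and 7.95 CPM in the uninjured pair (log2 fold change 2.38 ± 0.76, adjusted p = 0.0338), a call lost without any one of the 4 libraries (adjusted p = 0.0741 to 0.145). Setd3, the actin histidine methyltransferase, was at 84.2 and 78.7 CPM, against 26.0 and 27.5 CPM (1.58 ± 0.30, adjusted p = 0.00499). Kdm6b stood at 782 and 956 CPM at 8 h, above both uninjured libraries at 174 CPM, with a fold of 2.29 ± 0.94 that missed the threshold (adjusted p = 0.0805). All 9 groups to 60 h share 1 estimate of the spread, so the early Kdm6b pairs that lay far apart enter this p-value.

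Falling members at 8 h included the ATPase Smarca2, Tet1 and Smarcal1. Smarca2 was at 26.9 and 29.4 CPM, against 131 and 131 CPM in the uninjured pair (-2.24 ± 0.55, adjusted p = 0.0126). Tet1 was at 1.86 and 2.08 CPM, against 79.7 and 51.9 CPM (-5.09 ± 1.34, adjusted p = 0.0162), and Smarcal1 at 3.45 and 2.66 CPM, against 57.1 and 43.4 CPM (-4.07 ± 0.89, adjusted p = 0.00793). Hdac11, the only class IV deacetylase, had 0.119 and 0 CPM at 8 h, against 8.09 and 13.3 CPM in the uninjured pair. The number of members called at 8 h was 9 without uninjured library 1, 14 without uninjured library 2, 10 without 8 h library 1 and 8 without 8 h library 2. Hdac1, Kmt2d, Setd1b, Setd3 and Srcap were called in all 4 of these fits. The Smarca2 call was lost in all 4 (adjusted p = 0.0546 to 0.0948), the Tet1 call in all but that without uninjured library 2 (highest 0.108), and the Smarcal1 call without either 8 h library (highest 0.0741).

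At 16 h 6 members rose and 20 fell (22.7% of all genes called, 14.2% higher and 8.5% lower), and at 32 h 7 rose and 17 fell (20.5%, 14.1% higher and 6.44% lower). At 16 h leaving out 1 library left 5 (16 h library 1), 9 (uninjured library 1), 12 (uninjured library 2) or 14 calls (16 h library 2). At 32 h it left 12 (32 h library 1), 13 (uninjured library 1), 15 (uninjured library 2) or 16 (32 h library 2). The 32 h split was 4 higher and 24 lower with size factors by the RLE method, 7 and 30 with DESeq2, 4 and 19 without the filter on low counts, and 4 and 22 without ribosomal and satellite models. At 32 h 7 of 9 macrophage markers rose, with sums of 108 and 523 CPM, against 5.51 and 4.18 CPM in the uninjured pair, and 6 of 10 endothelial markers rose, with sums of 151 and 110 CPM, against 37.3 and 73.8 CPM; their part was not tested.

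Dnmt1 was the 1 member called between 32 and 16 h, and DESeq2 called 3 higher and 1 lower. It was at 129 and 94.3 CPM at 32 h, against 24.2 and 36.4 CPM at 16 h (log2 fold change 1.87 ± 0.33, adjusted p = 0.0197), in a comparison where 0.796% of all genes were called (0.761% higher, 0.0356% lower). The Dnmt1 call was lost without 16 h library 1, without 16 h library 2 and without 32 h library 1. At 60 h Dnmt1 was at 136 and 147 CPM, against 28.3 and 22.0 CPM in the uninjured pair (2.49 ± 0.34, adjusted p = 0.000396). A list of 20 cell cycle genes summed to 3420 and 2064 CPM at 32 h, then 4471 and 4776 CPM at 60 h, against 139 and 109 CPM in the uninjured pair, and 20 of 20 rose at 60 h. Uhrf1, which brings Dnmt1 to replicating DNA, rose by 5.46 ± 0.68 at 60 h (adjusted p = 0.000275). The list of DNA methylation partners that holds Uhrf1 summed to 451 to 482 CPM at 60 h, against 328 to 422 CPM in the uninjured pair.

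The Polycomb catalytic subunits changed in opposite directions. Ezh2 was at 53.9 and 57.2 CPM at 32 h, then at 47.7 and 47.2 CPM at 60 h, against 17.2 and 14.9 CPM in the uninjured pair (60 h: 1.56 ± 0.43, adjusted p = 0.0175). Ezh1 was at 14.5 and 19.5 CPM at 60 h, against 92.1 and 99.9 CPM in the uninjured pair (-2.50 ± 0.55, adjusted p = 0.00587). Leaving out any one of the 4 libraries ended the Ezh2 call at 60 h (adjusted p = 0.0593 to 0.0980), and leaving out 60 h library 1 ended that of Ezh1 (0.0685). Per kilobase of transcript, Ezh2 stood at 7.14 and 7.06 CPM per kb at 60 h, against 2.57 and 2.23 in uninjured cells, and Ezh1 at 1.95 and 2.62, against 12.4 and 13.4; the 60 h libraries had more Ezh2 and the uninjured libraries more Ezh1. At 7 days Ezh2 was at 85.1 and 84.4 CPM, the highest pair in the series (2.40 ± 0.40 against uninjured, adjusted p = 0.000554), and Ezh1 at 27.4 and 28.2 CPM (-1.79 ± 0.47, adjusted p = 0.0164; lost without either 7 day library, highest 0.0836). The list of cell cycle genes summed to 896 to 1254 CPM at 7 days, below its 4471 to 4776 CPM at 60 h, so Ezh2 and this list did not peak together. At 28 days Ezh2 was at 36.0 and 23.9 CPM and Ezh1 at 87.0 and 96.3 CPM.

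**Figure D4:**
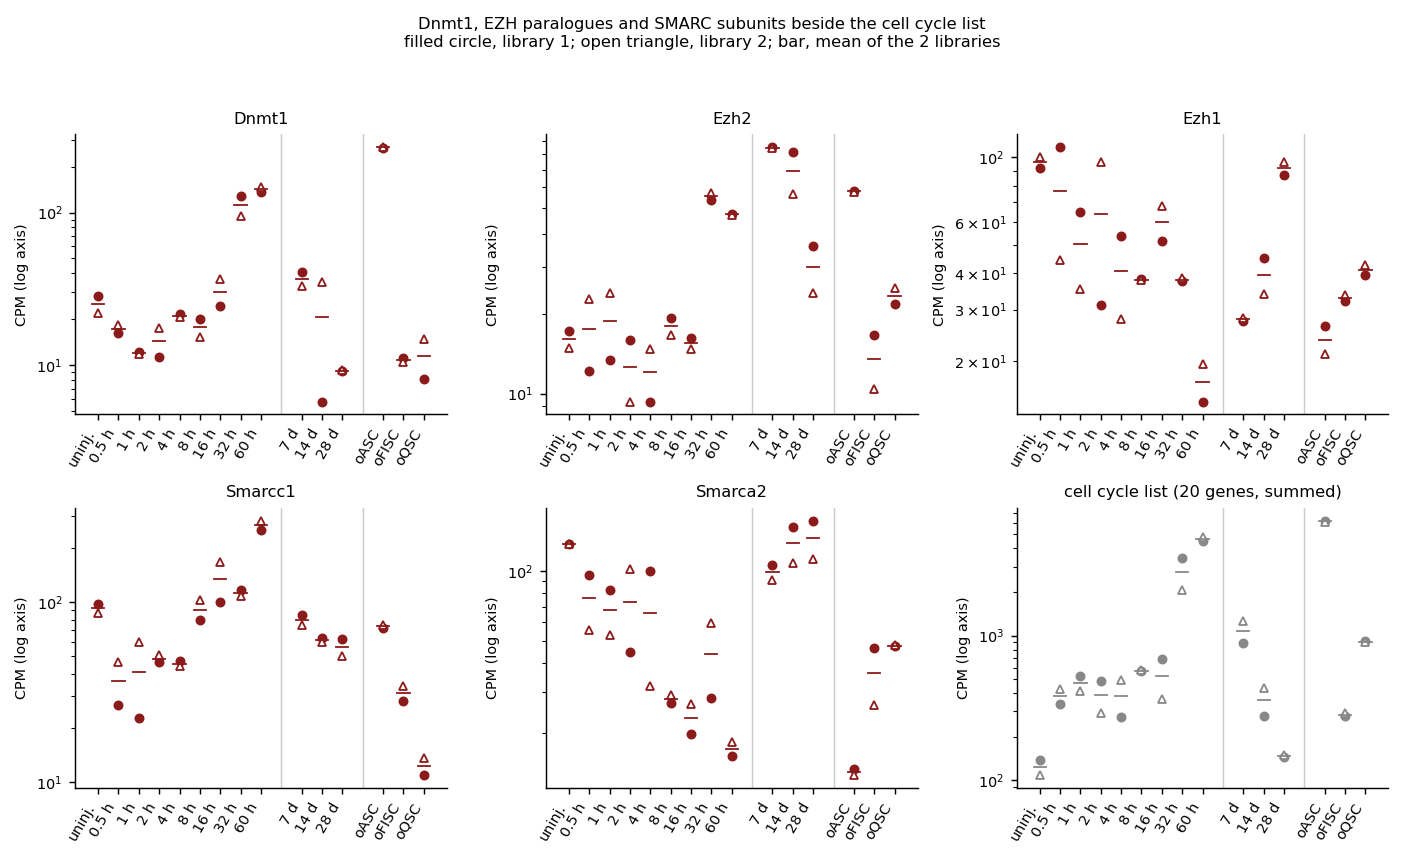
CPM (log axis) of Dnmt1, Ezh2, Ezh1, Smarcc1 and Smarca2 and the summed CPM of 20 cell cycle genes in each library; circles and triangles are the 2 libraries and bars their mean. Dnmt1 stands at 136 and 147 CPM at 60 h and at 267 and 269 CPM in oASC, the groups with the highest cell cycle sums.

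At 60 h 10 members rose and 27 fell of 84 (28.3% of all genes called, 15.5% higher and 12.8% lower), and the median log2 fold change was -0.85 over members and 0 over all genes. Leaving out 1 library left 15 (60 h library 2), 19 (60 h library 1) or 25 calls (either uninjured library). Called in all 4 of these fits were Chd5, Chd6, Chd7, Dnmt1, Hdac1, Hdac3, Kmt2a, Kmt2e, Setd1b, Smarca2, Smarce1 and Tet2. With a correction for transcript length 10 members rose and 15 fell. Under every one of 7 scalings and filters 8 of the 10 rising members were called (Dnmt1, Ezh2, Hdac1, Hdac3, Hdac6, Smarcb1, Smarcc1 and Smarce1) and 13 of the 27 falling ones, among them Ezh1, Smarca2, Hdac4, Tet2 and Kmt2e. Macrophage markers were also higher at 60 h: 6 of 9 rose, their sum was 219 and 48.3 CPM, against 5.51 and 4.18 CPM in the uninjured pair, and Adgre1 was at 8.80 and 1.62 CPM, against 0 and 0. Myofibre markers summed to 578 and 561 CPM, against 187 and 108 CPM, with 5 of 12 higher. Their part in the member values was not tested, and in bulk samples fewer cells of a type and less RNA per cell cannot be told apart.

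Of 13 Smarc genes 3 rose and 2 fell at 60 h, where 15.5% of all genes were higher and 12.8% lower. The core subunits Smarcb1, Smarcc1 and Smarce1 rose: Smarcc1 was at 251 and 284 CPM, against 97.5 and 87.6 CPM in the uninjured pair (1.52 ± 0.45, adjusted p = 0.0247), and Smarce1 at 161 and 163 CPM, against 38.1 and 40.6 CPM (2.03 ± 0.47, adjusted p = 0.00747). The ATPase Smarca2 was at 16.0 and 18.3 CPM, against 131 and 131 CPM (-2.94 ± 0.57, adjusted p = 0.00295), and the paralogue Smarcc2 also fell (-1.47 ± 0.41, adjusted p = 0.0191). The calls of Smarcc1 and Smarcc2 were lost without any one of the 4 libraries (adjusted p = 0.0629 to 0.119 and 0.0797 to 0.127). The alternative ATPase Smarca4 had a fold of 0.27 ± 0.36 (adjusted p = 0.593), with 126 and 126 CPM at 60 h, against 127 and 80.5 CPM in the uninjured pair. Smarcd3, a subunit known from heart and muscle differentiation, was at 11.8 and 6.47 CPM at 60 h, then 61.0 and 52.1 CPM at 7 days, against 23.7 and 24.4 CPM in the uninjured pair, and was called at neither time (adjusted p = 0.146 and 0.238); 48.2% of its exonic bases lie opposite Chpf2, and the strand of counting is not known.

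Of the Chd remodellers 6 of 9 fell at 60 h and 0 rose, beside 12.8% and 15.5% of all genes. Only the falls of Chd5, Chd6 and Chd7 were called under all 7 scalings and filters. Chd7, whose human counterpart is mutated in CHARGE syndrome, was at 79.5 and 81.4 CPM, against 372 and 330 CPM in the uninjured pair (-2.13 ± 0.32, adjusted p = 0.000627). Chd6 was at 26.2 and 28.8 CPM, against 156 and 147 CPM (-2.47 ± 0.51, adjusted p = 0.00401). Chd4 was at 111 and 100 CPM, against 201 and 179 CPM, and was not called.

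Of the demethylases 6 of 18 fell and 0 rose at 60 h, and of the methyltransferases 8 of 18 fell and 2 rose, beside 28.3% of all genes called either way (12.8% lower, 15.5% higher). Only the falls of Kdm4b, Ezh1, Kmt2a, Kmt2b, Kmt2e and Setd1b were called under all 7 scalings and filters. Kmt2e, a Kmt2-like protein without known catalytic activity, was at 38.8 and 38.5 CPM, against 234 and 245 CPM in the uninjured pair (-2.64 ± 0.37, adjusted p = 0.000473). Kdm5b, a demethylase of the active H3 mark, was at 14.9 and 9.66 CPM, against 57.7 and 61.5 CPM (-2.29 ± 0.60, adjusted p = 0.0140). Both genes lay below their uninjured values in each 60 h library, a condition for listing Kmt2e among the largest falls. The highest adjusted p of Kdm5b with 1 library left out was 0.105.

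Of the deacetylases 4 of 11 rose and 1 fell at 60 h, and 0 of 7 sirtuins were called, beside 28.3% of all genes. Sirt7 had an adjusted p of 0.0585 and passed the threshold with DESeq2 (0.00781), RLE size factors (0.0297), the length correction (0.0243) and without ribosomal and satellite models (0.0339). Hdac3, the catalytic subunit of the NCoR complex, was at 118 and 131 CPM, against 46.7 and 43.4 CPM (1.46 ± 0.28, adjusted p = 0.00273). Hdac4, a class IIa deacetylase that binds MEF2 factors, was at 48.2 and 46.7 CPM, against 282 and 285 CPM (-2.59 ± 0.59, adjusted p = 0.00695; 0.0519 without 60 h library 2). Among the enzymes of DNA methylation Dnmt1 rose while Dnmt3a, Tet2 and Tet3 fell (highest adjusted p with 1 library left out 0.0560 for Dnmt3a and 0.0587 for Tet3); Tet2 was at 52.4 and 36.1 CPM, against 225 and 222 CPM (-2.35 ± 0.43, adjusted p = 0.00210).

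Set against 8 h, 10 members rose and 21 fell at 60 h (23.8% of all genes called, 12.5% higher and 11.2% lower). Leaving out 1 of the 4 libraries left 13 (60 h library 2) or 15 calls (each of the others). Falling members included 8 demethylases, with Kdm6b at 67.2 and 59.2 CPM at 60 h, against 782 and 956 CPM at 8 h (-3.76 ± 1.00, adjusted p = 0.0178), and Kdm7a at 5.19 and 4.04 CPM, against 165 and 159 CPM (-5.11 ± 1.08, adjusted p = 0.00575). Kdm6a, which removes the same Polycomb mark, was at 7.49 and 6.68 CPM, against 32.7 and 38.2 CPM (-2.30 ± 0.44, adjusted p = 0.00334), and was called in every fit that left out 1 library. The Kdm6b call was lost in all of these but that without 8 h library 1 (highest adjusted p = 0.108), and the Kdm7a call without 60 h library 2 (0.0546). Over all 9 groups to 60 h, 34 of 84 members changed in some way (24.7% of all genes called); without uninjured library 1 16 were called, without uninjured library 2 or either 60 h library 17, and without any other single library 23 to 43.

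In regenerating muscle, at 7 days 5 rose and 13 fell against uninjured cells (11.2% of all genes called, 5.84% higher and 5.35% lower). At 28 days 5 rose and 8 fell (6.49%, 2.29% higher and 4.2% lower), and 7 and 6 with the length correction. Time after injury and the deposited table differ together here and cannot be told apart. At 7 days fibro-adipogenic markers summed to 2424 to 2704 CPM, against 1185 to 1347 CPM in the uninjured pair. Myofibre markers summed to 478 to 688 CPM, against 108 to 187 CPM, and endothelial markers to 18.1 to 20.6 CPM, against 37.3 to 73.8 CPM. Their part was not tested. Leaving out 1 library left 4 (7 day library 1), 5 (7 day library 2) or 7 calls (either uninjured library) at 7 days. At 28 days it left 5 (28 day library 1), 6 (either uninjured library) or 9 (28 day library 2). Kdm4a and Kmt2c were among the members lower at 7 days (highest adjusted p with 1 library left out 0.114 and 0.132), and Sirt6 and Sirt7 were higher: Sirt6, a chromatin deacetylase, was at 52.4 and 68.2 CPM at 7 days, against 9.10 and 17.7 CPM in the uninjured pair (2.17 ± 0.61, adjusted p = 0.0231), and Sirt7 at 54.3 and 51.8 CPM, against 17.7 and 18.6 CPM (1.55 ± 0.33, adjusted p = 0.00414). Both calls were lost without any one of the 4 libraries (adjusted p = 0.0697 to 0.259 for Sirt6 and 0.0506 to 0.0927 for Sirt7). Srcap was lower at 7 days, at 9.15 and 15.2 CPM (-5.90 ± 0.51, adjusted p = 3.14e-07). Summed with the overlapping Gm42715, 7 days stood at 75.1 and 80.6 CPM, against 789 and 783 CPM in the uninjured pair, a smaller gap. Between 14 and 7 days edgeR called 0 of 82 members (0.0531% of all genes, 0.0472% higher and 0.0059% lower) and between 28 and 7 days 0 (0.295%, 0.0826% higher and 0.212% lower), with 8 and 16 members at an unadjusted p under 0.05 and 0 and 6 called by DESeq2.

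In old cells 27 members rose and 29 fell in oASC against oQSC, with 40.3% of all 30099 tested genes called (19.0% higher, 21.3% lower). The median log2 fold change was 0.01 over members and -0.33 over all genes. The shared estimate of the spread over all genes (edgeR's common dispersion) was 0.0878 in this table, against 0.316 in the time course. The 2 libraries differed by more than 2-fold for 0 of 75 members in oASC (0.783% of all genes). In oQSC this held for 1 of 72 members (1.39%, against 2.62% of all genes) and in oFISC for 1 of 71 (1.41%, against 5.36%). Leaving out 1 library left 34 to 48 calls, the fewest without oASC library 2, and 37 without oASC library 1. Macrophage markers summed to 85.5 and 110 CPM in oASC, against 158 and 127 CPM in oQSC, and 7 of 10 endothelial markers were lower in oASC, with sums of 30.2 and 23.1 CPM, against 125 and 159 CPM in oQSC. Fibro-adipogenic, neutrophil and lymphocyte sums were lower in oASC too. Pericyte and smooth muscle markers were higher, at 1527 to 1658 CPM in oASC, against 579 to 722 CPM in oQSC. So were myofibre markers, at 410 to 472 CPM, against 157 to 166 CPM, and Schwann markers, at 64.6 to 80.4 CPM, against 18.5 to 27.3 CPM. The part of these markers was not tested.

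Dnmt1 was the called member with the largest rise, as at 60 h, at 267 and 269 CPM in oASC, against 8.12 and 14.8 CPM in oQSC (4.54 ± 0.31, adjusted p = 1.7e-05). Ezh2 rose and Ezh1 fell: Ezh2 was at 58.1 and 57.9 CPM in oASC, against 21.8 and 25.0 CPM in oQSC (1.3 ± 0.24, adjusted p = 0.00288), and Ezh1 at 26.3 and 21.1 CPM, against 39.5 and 42.7 CPM (-0.80 ± 0.21, adjusted p = 0.0147; lost in all fits with 1 library left out but that without oQSC library 1, highest 0.173). Kmt5a, which methylates histone H4 in mitosis and is known as Set8, was at 32.0 and 36.8 CPM in oASC, against 4.34 and 3.82 CPM in oQSC (3.07 ± 0.40, adjusted p = 0.000436). The oASC and oQSC libraries did not overlap for any of the 4. Non-overlap was a condition for listing the largest rises, Dnmt1 and Kmt5a among them. The share of all genes without overlap was not counted.

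Of the 13 Smarc genes 7 rose and 2 fell in oASC, where 19.0% of all genes were higher and 21.3% lower. Smarca4 was at 288 and 282 CPM in oASC, against 39.6 and 51.5 CPM in oQSC (2.64 ± 0.25, adjusted p = 8.62e-05), Smarcc1 at 72.0 and 75.1 CPM, against 10.9 and 13.7 CPM (2.57 ± 0.23, adjusted p = 5.77e-05), and Smarca2 at 14.1 and 13.2 CPM, against 47.4 and 47.8 CPM (-1.81 ± 0.27, adjusted p = 0.000870). Smarca1, an ISWI ATPase, was at 0.344 and 0.715 CPM, against 7.13 and 12.2 CPM (-4.19 ± 0.46, adjusted p = 0.000187). Of the Chd genes 1 rose (Chd3) and 5 fell.

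The demethylases Kdm6b and Kdm7a fell in oASC. Kdm6b was at 128 and 137 CPM in oASC, against 885 and 745 CPM in oQSC (-2.63 ± 0.22, adjusted p = 5.07e-05), and Kdm7a at 5.45 and 8.81 CPM, against 96.3 and 80.8 CPM (-3.64 ± 0.28, adjusted p = 3.09e-05). Of 19 demethylases 6 fell and 4 rose, Kdm2a, Kdm2b, Kdm6a and Kdm8, beside 21.3% of all genes lower and 19.0% higher. Tet2 was at 18.6 and 18.9 CPM, against 113 and 106 CPM (-2.56 ± 0.19, adjusted p = 2.67e-05), while Tet3 was at 48.7 and 53.9 CPM, against 9.76 and 9.12 CPM (2.43 ± 0.21, adjusted p = 5.28e-05).

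Most sirtuins were lower in oFISC, the freshly isolated old cells, than in oQSC. In oFISC 14 members were higher and 28 lower than in oQSC (41.9% of all genes called, 19.3% higher and 22.6% lower), and Sirt2, Sirt3, Sirt4, Sirt6 and Sirt7 were lower, 5 of 7 sirtuins. Sirt2 was at 81.2 and 69.2 CPM in oFISC, against 235 and 242 CPM in oQSC (-2.06 ± 0.19, adjusted p = 0.000134), and Sirt6 at 5.02 and 1.48 CPM, against 16.6 and 14.9 CPM (-2.74 ± 0.46, adjusted p = 0.00233). The balance of this comparison rested on the scaling: the RLE method gave 24 higher and 19 lower, DESeq2 gave 20 and 20, and the length correction 28 and 15, with the median of all genes shifted by 0.30, 0.35 and 0.96 on the log2 scale. Sirt2, Sirt3, Sirt4 and Sirt6 were lower under all 7 settings and Sirt7 was not (-0.66, and 0.05 with the length correction). Levels given here are scaled over all 30 libraries, on which oFISC against oQSC stands 0.39 log2 higher than in the fit of old cells alone.

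Of 11 deacetylases 4 were lower in oFISC and 2 higher, and of 13 Smarc genes 7 were lower and 4 higher. Over all genes 22.6% were lower and 19.3% higher. Hdac1 was at 43.6 and 49.0 CPM in oFISC, against 130 and 128 CPM in oQSC (-1.87 ± 0.19, adjusted p = 0.000207), and Smarcb1 at 17.7 and 18.6 CPM, against 41.9 and 46.0 CPM (-1.66 ± 0.19, adjusted p = 0.000338). Tet3 and Srcap were higher, Tet3 at 31.7 and 34.5 CPM in oFISC, against 9.76 and 9.12 CPM in oQSC (1.42 ± 0.20, adjusted p = 0.000968). Kdm6b was at 821 and 858 CPM in oFISC, against 885 and 745 CPM in oQSC, and was not called (-0.35 ± 0.21, adjusted p = 0.204).

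Old untreated cells differed from uninjured cells of the time course in many members. In oQSC 7 members were higher and 28 lower (21.6% of 28823 genes called, 12.3% higher and 9.31% lower), with medians of -0.56 over members and 0.49 over all genes. Without ribosomal and satellite models the counts were 12 and 23, and without 1 library 19 (uninjured library 1 or oQSC library 1), 21 (oQSC library 2) or 29 (uninjured library 2). The age label and the deposited table, with its own set of gene identifiers, differ together between these groups and cannot be told apart. The oQSC libraries also had more Myod1 and less Pax7 than uninjured cells, as given above. Macrophage markers summed to 158 and 127 CPM in oQSC, against 5.51 and 4.18 CPM in the uninjured pair, with 5 of 9 higher, and their part was not tested. Setd1b was at 8.15 and 7.75 CPM in oQSC, against 108 and 145 CPM in the uninjured pair (-3.99 ± 0.40, adjusted p = 1.41e-06), Tet3 at 9.76 and 9.12 CPM, against 89.7 and 74.4 CPM (-3.12 ± 0.33, adjusted p = 1.79e-06), and Hdac1 at 130 and 128 CPM, against 12.8 and 14.5 CPM (3.24 ± 0.34, adjusted p = 1.8e-06). Kdm6b was at 885 and 745 CPM in oQSC, against 174 and 174 CPM (2.23 ± 0.73, adjusted p = 0.0335), a call lost without any one of the 4 libraries (adjusted p = 0.0915 to 0.190).

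The 2 injury responses share no library, and they differed for 16 members. The difference between the response of old cells (oASC against oQSC) and that of the time course (60 h against uninjured) was positive for 14 members and negative for 2 (7.28% of all genes called, 3.29% higher and 3.99% lower). Tet3 rose by 2.43 in old cells and had a fold of -1.52 in the time course, a difference of 3.95 ± 0.44 (adjusted p = 5.73e-05). Srcap differed by 3.35 ± 0.60 (adjusted p = 0.00184) and Setd1b by 3.23 ± 0.52 (adjusted p = 0.000863), both of them higher in oASC than oQSC and lower at 60 h than in uninjured cells. Summed with Gm42715, Srcap stood at 132 and 129 CPM in oASC, against 86.3 and 82.9 CPM in oQSC, and at 545 and 508 CPM at 60 h, against 789 and 783 CPM in the uninjured pair, so that both gaps were smaller; the difference of the sums was not tested. Hdac1 had a fold of 0.12 in old cells, at 139 and 143 CPM in oASC, against 130 and 128 CPM in oQSC, and differed by -2.23 ± 0.45 (adjusted p = 0.00398). Without 1 library 7 to 11 differences were called; uninjured library 1, 60 h library 1 and oQSC library 1 each left 7, and 60 h library 2 left 8, while either oASC library left 9 and oQSC library 2 left 10. With the length correction 9 were called. Dnmt1, Ezh2, Ezh1 and Smarca2 were not among them.

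**Figure D5:**
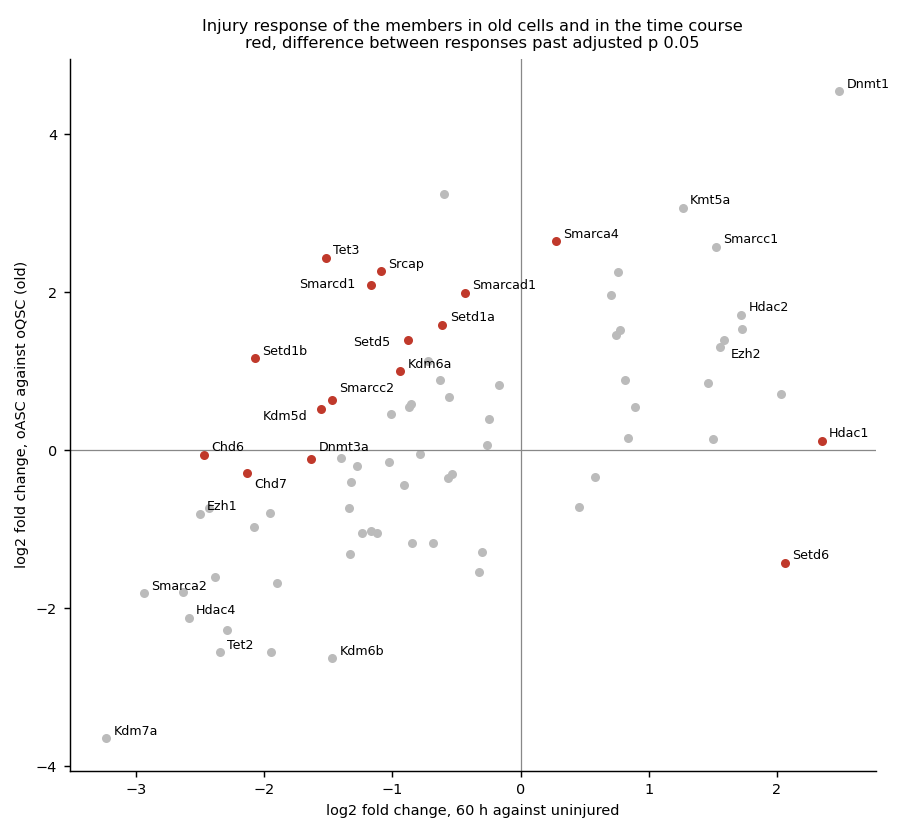
Log2 fold change in oASC against oQSC (vertical) and at 60 h against uninjured (horizontal) of the 76 members with at least 5 CPM in a group of each comparison; each point is 1 gene and red marks a difference between the responses past adjusted p 0.05. Of these 76 points 53 have the same sign on both axes, a share that was not counted over all genes. Dnmt1 is the highest called member on both axes, and Tet3, Srcap and Setd1b lie in the upper left.

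Partners of the members, from lists of known subunits, were counted in the same fits, where the calls at 60 h took in 28.3% of all genes (15.5% higher, 12.8% lower) and those in oASC 40.3% (19.0% higher, 21.3% lower). Of 25 Polycomb partners 6 rose and 2 fell at 60 h, and 9 rose and 6 fell in oASC against oQSC; Eed, the core subunit of Polycomb repressive complex 2, rose by 1.98 ± 0.39 at 60 h (adjusted p = 0.00330) and Jarid2, an accessory subunit, fell by 2.96 (SE 0.36, adjusted p = 0.000250). Of 17 other histone methyltransferases 8 rose and 1 fell at 60 h and 13 rose and 3 fell in oASC, with the arginine methyltransferase Prmt1 3.53 ± 0.42 higher at 60 h (adjusted p = 0.000246). Of 10 histone acetyltransferases 2 rose and 5 fell at 60 h and 5 rose and 2 fell in oASC; Kat2b had a log2 fold change of -4.05 ± 0.77 at 60 h (adjusted p = 0.00256).

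Of 37 tested subunits of other remodellers 6 rose and 13 fell at 60 h, and 11 of 38 rose and 6 fell in oASC, beside the same shares of all genes (28.3% and 40.3% called). Hells, a remodeller needed for DNA methylation in repeats, rose by 4.03 ± 0.39 at 60 h (adjusted p = 7.98e-05), and Actl6a, the SWI/SNF actin-like subunit of dividing cells, by 3.74 ± 0.59 (adjusted p = 0.000885). Both are from the 6 that rose, and the 13 that fell, the larger part, are not named here.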

How the data were processed

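RNA was measured in 30 libraries, and the values used are raw counts per gene as deposited by the authors in 3 tables: the time course (18 libraries), regeneration (6) and old cells (6). Per the labels' protocols, RNA of paraformaldehyde-fixed cells was extracted with an FFPE kit, amplified from poly(A) tails, tagged with Tn5 and sequenced as paired reads of 100 cycles. Per the submitters' processing notes, genome build mm10 was used with HISAT2 2.1.0, StringTie 1.3.3, Trimmomatic 0.36 and SAMtools 1.3; counting program, strand, annotation and settings were not given in the sources used here. Overlapping genes can share reads: 38 members share exonic bases with another gene model and 7 share over 10%.

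The groups follow the labels. Members and lists were chosen with earlier results of these data known. Counts were fitted over each whole table with edgeR 4.0.16 in R 4.3.3: filterByExpr (minimum count 10, minimum total 15), TMM scaling, group means, the quasi-likelihood F test and Benjamini-Hochberg adjustment over all tested genes at 0.05. All groups of a table share 1 estimate of the spread. Comparisons across tables used the 55154 gene identifiers shared by all tables, with version numbers removed; the tables may differ in their annotation. Levels are CPM with TMM scaling over all 30 libraries, and lengths are from GENCODE M21. Depth was 9182407 to 57441790 counts per library.

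The rule for named members took, in each role class, up to 4 with the smallest adjusted p over the 9 groups to 60 h, a panel of known genes, and up to 6 called members per direction and comparison with at least 5 CPM and no overlap. The rule allows any other member to be named as well. Other settings tried were DESeq2 1.42.0, size factors by RLE, a replicate block, no filter, counts without a list of 5 ribosomal models, folds corrected for transcript length by lowess, each library left out in turn and, chosen after seeing the data, counts without ribosomal and satellite models. Of the 5 listed models only Gm42418, Gm26917 and AY036118 were present in the data. The model CT010467.1, part of the ribosomal shares given above, was left out only in the last of these settings. The edgeR script was tested on simulated data with known changes.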

Additional observations from a re-analysis of the deposited data

Results flagged for a closer look

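The injury response of 16 members differed between old cells (oASC against oQSC) and the time course (60 h against uninjured), by a test of the difference itself in edgeR's quasi-likelihood fit of all 30 libraries with Benjamini-Hochberg adjustment. The age label and the deposited table differ together between these sets and cannot be told apart, and the starting levels differed too. In oQSC and in uninjured cells, Tet3 averaged 9.44 and 82.1 CPM, Setd1b 7.95 and 127 CPM and Srcap 12.7 and 728 CPM. The oQSC libraries had Myod1 at 1070 and 1536 CPM and Pax7 at 84.5 and 72.7 CPM, against Myod1 at 41.4 and 50.8 CPM and Pax7 at 1746 and 1555 CPM in the uninjured pair; the part of these levels was not tested. Each difference below is the log2 fold in old cells minus that in the time course.

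Among genes of DNA methylation, Tet3 differed by 3.95 ± 0.44 (SE, adjusted p = 5.73e-05), with a fold of 2.43 in old cells and -1.52 in the time course. Dnmt3a differed by 1.52 ± 0.45 (adjusted p = 0.0422), with -0.11 in old cells and -1.63 in the time course.

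Remodeller genes made up 7 of the 16. Of the 84 members tested, 9 were Chd genes, 13 Smarc genes and 2 of the SRCAP and EP400 kind. Over all genes 7.28% were called in this test (3.29% higher, 3.99% lower). Srcap differed by 3.35 ± 0.60 (adjusted p = 0.00184), with 2.26 in old cells and -1.09 in the time course. Of its exonic bases 61.7% also belong to Gm42715 on the same strand; summed over both, oASC stood at 132 and 129 CPM, against 86.3 and 82.9 CPM in oQSC, and 60 h at 545 and 508 CPM, against 789 and 783 CPM in the uninjured pair, both smaller gaps. The SWI/SNF subunit Smarcd1 differed by 3.26 ± 0.72 (adjusted p = 0.0081; 2.09 and -1.17), the ATPase Smarca4 by 2.36 ± 0.47 (0.00372; 2.64 and 0.27) and the core subunit Smarcc2 by 2.11 ± 0.58 (0.0307; 0.64 and -1.47). Smarcad1, a remodeller that acts at replication forks and DNA breaks, differed by 2.42 ± 0.46 (adjusted p = 0.00296; 1.99 and -0.43). Chd6 differed by 2.41 ± 0.61 (adjusted p = 0.0198; -0.06 and -2.47) and Chd7 by 1.84 ± 0.41 (0.00906; -0.29 and -2.13), so for both the fold in the time course was the larger.

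Of the methyltransferases, Setd1b differed by 3.23 ± 0.52 (adjusted p = 0.000863; 1.16 in old cells and -2.07 in the time course), Setd5 by 2.27 ± 0.48 (0.00598; 1.39 and -0.88) and Setd1a by 2.19 ± 0.67 (0.0497; 1.58 and -0.61). Setd6 went the other way, with a difference of -3.48 ± 0.80 (adjusted p = 0.0107), a fold of -1.42 in old cells and 2.06 in the time course. Of the demethylases, the Y-linked Kdm5d differed by 2.08 ± 0.58 (adjusted p = 0.0329; 0.52 and -1.56) and Kdm6a by 1.94 ± 0.57 (0.0409; 1.00 and -0.94). Hdac1 differed by -2.23 ± 0.45 (adjusted p = 0.00398), with 0.12 in old cells and 2.35 in the time course.

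The differences of Setd1b, Smarca4, Smarcad1, Smarcd1, Srcap, Tet3, Hdac1 and Setd6 were called under all 7 scalings and filters. Those of Hdac1, Setd1b, Smarcad1, Srcap and Tet3 were called in each of the 8 fits that left out 1 library.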

How the results depend on the processing

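All counts here are members called by edgeR's quasi-likelihood test unless another tool is named, and the cause of each shift was not tested. DESeq2 called 28 at 0.5 h, 25 at 1 h, 23 at 2 h, 27 at 4 h, 37 at 32 h, 28 at 7 days and 22 at 28 days against uninjured cells, 54 over all 9 groups to 60 h, 4 between 32 and 16 h and 6 between 28 and 7 days. The length correction called 9 at 1 h and 9 of the differences between the responses of old cells and of the time course. Without the filter on low counts 2 were called between 32 and 16 h, 4 between 28 and 7 days, and 30 higher and 21 lower in oASC against oQSC. With 1 library left out the calls ran over 3 to 12 at 0.5 h, 3 to 8 at 1 h, 3 to 9 at 2 h, 3 to 11 at 4 h, 8 to 14 at 8 h, 5 to 14 at 16 h, 12 to 16 at 32 h, 15 to 25 at 60 h, 16 to 43 over all 9 groups, 0 to 1 between 32 and 16 h, 13 to 15 between 60 and 8 h, 0 to 0 in both comparisons with 7 days, 4 to 7 at 7 days and 5 to 9 at 28 days against uninjured cells, 30 to 38 in oFISC, 34 to 48 in oASC, 19 to 29 in oQSC against uninjured cells and 7 to 11 for the difference of responses; the lone library left in a group is assumed to vary like the others. The Kmt2d fold at 60 h was -1.01 and 0.10 with the length correction, and the Sirt7 fold in oFISC against oQSC -0.66 and 0.0543.

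Same-numbered libraries deviated together between some times (correlations of 0.815 between 0.5 and 1 h, 0.789 between 0.5 and 4 h and 0.778 between 1 and 4 h) and in opposite directions between others (-0.838 between 0.5 and 2 h). In the time course 9 of 36 pairs of groups were over 0.1; the range was 0.00910 to 0.0352 in regeneration and -0.0172 to 0.0753 in old cells, so the numbers were not taken as pairs. With a replicate block the calls were 12, 11, 9, 8, 27, 24, 20 and 37 at 0.5, 1, 2, 4, 8, 16, 32 and 60 h, 27 over all 9 groups, 1 between 32 and 16 h, 27 between 60 and 8 h, 0 in both comparisons with 7 days, 16 at 7 days, 10 at 28 days, 39 in oFISC, 56 in oASC, 34 in oQSC against uninjured cells and 13 for the difference of responses. Other scalings shifted the median fold of all genes at 32 h by -0.24 (RLE), -0.20 (DESeq2), -0.38 (length) and -0.15 (without ribosomal and satellite models), at 16 h by -0.15, -0.13 and -0.33 under the RLE, DESeq2 and length settings, at 60 h by -0.21 and in oASC by -0.30 under the length setting, and in oQSC against uninjured cells by 0.46 without ribosomal and satellite models. Of 271 named folds, those that kept both direction and side of the threshold were 255 under RLE, 266 under DESeq2, 230 without the filter, 213 with the length correction and 260 without ribosomal and satellite models.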
